A study of Homo sapiens with 3 samples.

Results

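Aminoacyl-tRNA synthetases are the enzymes that join each amino acid to its tRNA. The 35 genes described here were taken by name from a table of ribosome footprints and comprise 19 cytosolic enzymes (names ending in 1, with FARSA and FARSB, the subunits of the cytosolic phenylalanine enzyme) and 16 mitochondrial enzymes (names ending in 2). All 35 were found among the 63241 genes of the table, and all 35 were among the 19820 genes that passed the filter on low counts.

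Ribo-seq counts stretches of mRNA left intact under ribosomes after nuclease digestion, so a gene's count follows both how much mRNA it has and how densely ribosomes sit on it. It was done in HEK293T, a line from human embryonic kidney whose SV40 large T antigen binds the cell's own p53. The cells expressed wild-type (WT) p53 or 1 of 2 hotspot mutants of its DNA-binding domain, G245S or R273H, and every dish was treated with cycloheximide for 2 min before harvest. Each group had 3 culture dishes of 10 cm, sequenced as 3 libraries with their own barcodes but joined into 1 pool per group at reverse transcription. A difference between groups therefore cannot be told apart from a difference between pools, and p-values measure only the spread between dishes. A limit of the labels is that they name the lines as stable and the expression as transient, and that 1 field gives a Lipo2000 transfection 24 hr before collection, with a wt construct, for the 2 mutant groups but not for WT. The study's own text describes stable lines for every group. On the reading of that 1 field, expression of the mutant form and transfection could not be told apart. No spike-in or matched RNA-seq was used here, so values are shares of a library and do not separate mRNA amount from translation.

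The 9 libraries held 18.7 to 24.6 M expected counts. MDM2 and CDKN1A, which p53 switches on, had log2 fold changes against WT of -3.48 and -1.92 in G245S and of -3.49 and -2.14 in R273H, lower in the groups labelled as mutant. The epithelial markers KRT8 and KRT18 lay at 32.4 to 44.5 and 108 to 121 CPM (counts scaled to a common library total), EPCAM and CDH1 were low, at 3.28 to 5.35 and 5.24 to 8.58 CPM, and KRT19 was at or near 0. Among these markers the labelled epithelial type thus rests on KRT8 and KRT18. Of the genes listed for mesenchymal and neural traits of HEK293, VIM, CDH2 and NEFM lay above KRT8 and KRT18. They were at 875 to 997, 265 to 296 and 258 to 283 CPM, and NEFL was at 97.8 to 123 CPM. Of 5 markers of other cell types, PTPRC, ALB and PECAM1 were at or near 0 in all 9 libraries, and the collagens COL1A1 and COL3A1 lay at 25.0 to 34.0 and 3.41 to 5.23 CPM. KRT8 was higher in R273H than in WT by 0.36 on the log2 scale, and COL1A1 was lower in each mutant (-0.21 for G245S, -0.24 for R273H). NEFL was also lower in each mutant (-0.32 for G245S, -0.24 for R273H). VIM was higher in G245S (0.15) and CDH2 in R273H (0.12), and NEFM was called in neither mutant. The part of such differences in the results on the synthetases was not tested.

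In the cell, cytosolic synthetases supply the ribosomes that translate nuclear transcripts, whereas mitochondrial ones, which are also nuclear genes, are imported to charge the tRNAs of the organelle. They fall into class I and class II by the fold of the catalytic domain. Several cytosolic enzymes sit together in a multisynthetase complex held by the scaffold proteins AIMP1, AIMP2 and EEF1E1. Many cytosolic synthetase genes are known targets of ATF4, the transcription factor of the integrated stress response, which binds C/EBP-ATF response elements (CARE). GARS1 and KARS1 each make both the cytosolic and the mitochondrial enzyme for glycine and lysine, and QARS1 has no mitochondrial counterpart, since mitochondria make glutaminyl-tRNA by converting glutamyl-tRNA.

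The CARE core TGATGNAA was looked for on both strands (as TTNCATCA on the other) in the RefSeq promoter windows of build GRCh38.p14, from 250 bases before to 50 bases after each start. Of the 35 genes, 30 had an entry, in 39 windows. AARS2, LARS1, VARS1, VARS2 and YARS1 had none. The core stood in a window of 8 of the 30 genes (26.7%), against 4.46% of the 27305 genes in the whole table, or 3.62% of its 35116 windows. Among the 12 cytosolic enzymes listed as ATF4 targets it was found in 7 of the 10 with an entry. Among the 7 other cytosolic enzymes it was found in 0 of 6 with an entry, and among the mitochondrial enzymes in 1 of 14. The 8 windows are shown because they are the members whose promoters hold the core, most of them on the ATF4-target list; each reads 5′ to 3′ on the gene's strand, with the core in capitals and 10 bases on either side.
AARS1: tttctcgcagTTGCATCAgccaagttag
CARS1: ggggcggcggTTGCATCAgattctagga
GARS1: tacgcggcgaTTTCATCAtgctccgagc
IARS1: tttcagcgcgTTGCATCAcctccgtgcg
MARS1: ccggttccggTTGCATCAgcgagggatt
NARS1: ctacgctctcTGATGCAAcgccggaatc
TARS1: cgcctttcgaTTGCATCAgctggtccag
YARS2: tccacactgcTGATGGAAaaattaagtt
In 6 of the 7 cytosolic genes the core was read as TTNCATCA on the gene's strand, and in NARS1 as TGATGCAA. The windows lie at chr16:70289676-70289703 (AARS1, minus strand), chr11:3057408-3057435 (CARS1, minus), chr7:30594835-30594862 (GARS1, plus), chr9:92293693-92293720 (IARS1, minus), chr12:57488054-57488081 (MARS1, plus), chr18:57621805-57621832 (NARS1, minus), chr5:33440957-33440984 (TARS1, plus) and chr12:32756077-32756104 (YARS2, minus). The first base of the core was within 33 bases of the window's RefSeq start in CARS1, GARS1, IARS1, MARS1, NARS1 and TARS1. It was 187 and 197 bases before that start in AARS1 and YARS2. RefSeq starts can differ from the GENCODE v44 gene ends used for gene positions. The AARS1 window, for 1, lies inside the GENCODE gene (chr16:70251983-70289707). A match describes the letters only. SARS1, EPRS1 and WARS1, also on the list of ATF4 targets, had windows without these letters, from which nothing follows about the factor.

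The cytosolic enzymes were expressed at higher levels than the mitochondrial ones. Per length, WT footprints of the cytosolic genes lay between 29.0 CPM per kb of coding sequence (CARS1, the cysteine enzyme) and 230 CPM per kb (RARS1, the arginine enzyme), with a median of 131. The mitochondrial genes lay between 6.18 CPM per kb (PARS2, the proline enzyme) and 53.3 (IARS2, the isoleucine enzyme), with a median of 21.1. CARS1 and VARS1, the latter at 53.3 CPM per kb, were the cytosolic genes whose per-kb level fell within the mitochondrial range. For each of 15 amino acids compared as pairs, the cytosolic enzyme was the higher. The factor lay between 2.40 for isoleucine and 15.6 for phenylalanine, where FARSA stood for the cytosolic enzyme. Proline was left out of the pairs, since EPRS1, the fused enzyme for glutamate and proline, was set against EARS2 alone. In WT, EPRS1 lay at 178 CPM per kb and PARS2 at 6.18, further apart than any of the 15 pairs. Coding lengths ran from 471 to 1512 codons in the cytosolic set and from 360 to 1063 in the mitochondrial set.

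**Figure D1:**
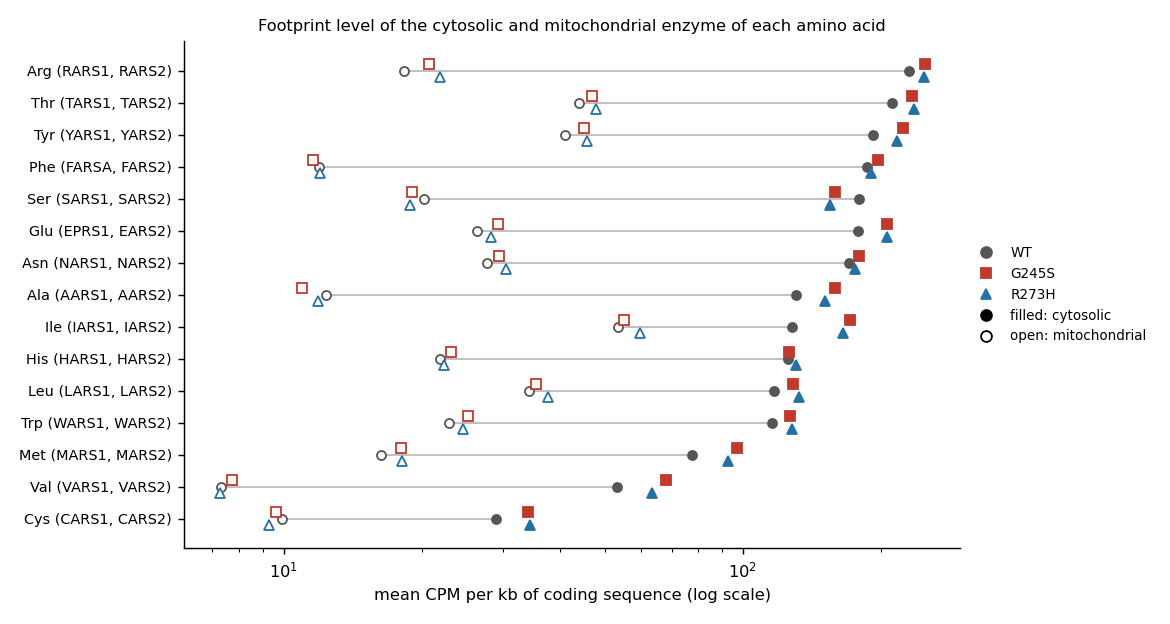
Mean footprint level in CPM per kb of coding sequence (log axis) of the cytosolic enzyme (filled) and the mitochondrial enzyme (open) of each of 15 amino acids, in WT (circles), G245S (squares) and R273H (triangles), n = 3 dishes each. Every filled symbol lies to the right of its open partner, and the gap is narrowest for isoleucine in WT, at a ratio of 2.40.

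Footprints on the cytosolic enzymes were higher in both mutants than in WT. Their summed level was 5956, 5965 and 6054 CPM in the 3 WT dishes, 6815, 6779 and 6844 CPM in the G245S dishes and 6699, 6681 and 6787 CPM in the R273H dishes. Every mutant dish was above every WT dish, and the means were 13.7% higher in G245S and 12.2% higher in R273H. The 16 mitochondrial enzymes together held 738, 743 and 742 CPM in WT, 767, 774 and 782 CPM in G245S and 799, 797 and 801 CPM in R273H. These groups did not overlap either, with means 4.50% and 7.82% above WT. The cytosolic sum was 8.09 ± 0.071 times the mitochondrial one in WT (SD, n = 3 dishes), 8.80 ± 0.078 times in G245S and 8.41 ± 0.054 times in R273H, and the 3 ranges did not overlap. IARS1 and EPRS1 alone held 35.4% of the net rise of the cytosolic sum in G245S and 36.6% in R273H. The 2 mutants are compared with the same WT dishes, so their differences from WT are not independent.

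**Figure D2:**
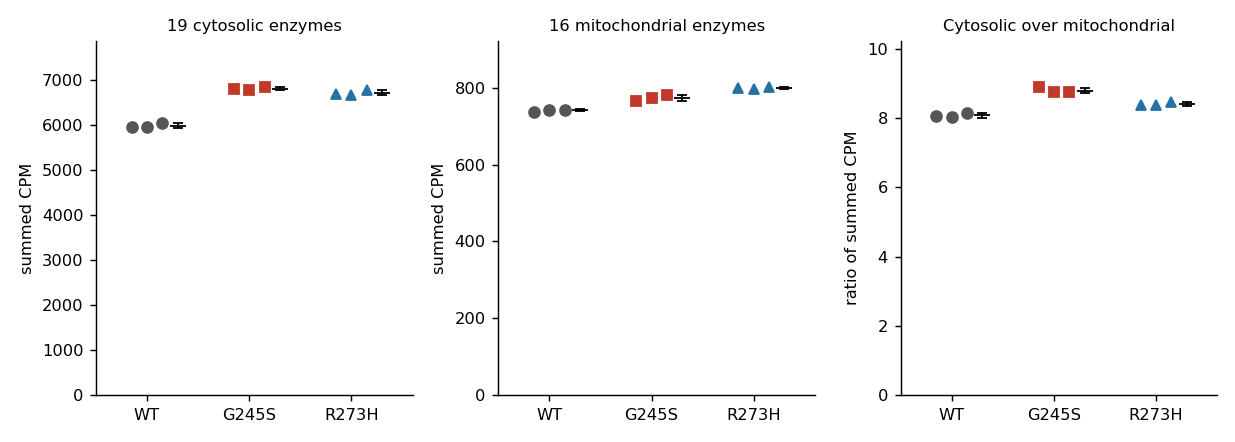
Summed CPM of the 19 cytosolic enzymes (left) and the 16 mitochondrial enzymes (middle), and the ratio of the sums (right), for each of 3 dishes in WT, G245S and R273H; bars give mean ± SD. The cytosolic sums lie at 5956 to 6054 CPM in WT and at or above 6681 CPM in every mutant dish.

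Gene by gene, edgeR's quasi-likelihood test with Benjamini-Hochberg adjustment over the 19820 genes called a gene at an adjusted p under 0.05. Of the 19 cytosolic enzymes, 17 were higher in G245S than in WT, SARS1 was lower, and HARS1 was not called. In R273H against WT, 15 were higher, SARS1 was again lower, and FARSA, HARS1 and NARS1 were not called. Over all genes tested, 24.7% were called in G245S (12.6% higher and 12.1% lower) and 28.8% in R273H (14.2% higher and 14.6% lower). Better counted genes are called more often, and among the 2793 genes at the mean level of the cytosolic members (81.0 to 892 CPM) 31.6% were called higher in G245S and 31.9% in R273H. The median log2 fold change of the cytosolic members was 0.15 in G245S (range -0.17 to 0.42) and 0.16 in R273H (range -0.21 to 0.37). Medians were -0.00069 and -0.0024 over all genes tested, and 0.025 and 0.013 over the genes at the cytosolic level. The differences of the cytosolic members were modest in size, with the highest, of IARS1 in G245S, at 33.4%.

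For the mitochondrial enzymes, 3 of 16 were called higher in G245S (EARS2, RARS2 and YARS2), 1 lower (AARS2), and 12 were not called. In R273H, 7 were higher (IARS2, LARS2, MARS2, NARS2, RARS2, TARS2 and YARS2), 0 were lower and 9 were not called. Among the 9439 genes at their mean level (8.73 to 170 CPM), 16.4% were called higher in G245S and 18.1% in R273H, so the 3 of 16 in G245S is near that background. All 4 mitochondrial calls in G245S were lost with DESeq2, which called 0 of 16, and 1 to 4 of 16 were called when 1 dish was left out (1 without WT replicate 1 or G245S replicate 2). In R273H 4 to 7 were called without 1 dish, the lowest without R273H replicate 1. The median over these enzymes was 0.078 on the log2 scale for G245S, and 0.099 for R273H (0.063 without WT replicate 3). They were also measured less precisely: the SE of a log2 fold change against WT had a median of 0.056 and 0.055 over the mitochondrial genes, and 0.026 in both mutants over the cytosolic ones. A lower count of calls in the mitochondrial set is thus not a test that the sets differ, and the difference between the sets was not tested.

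**Figure D3:**
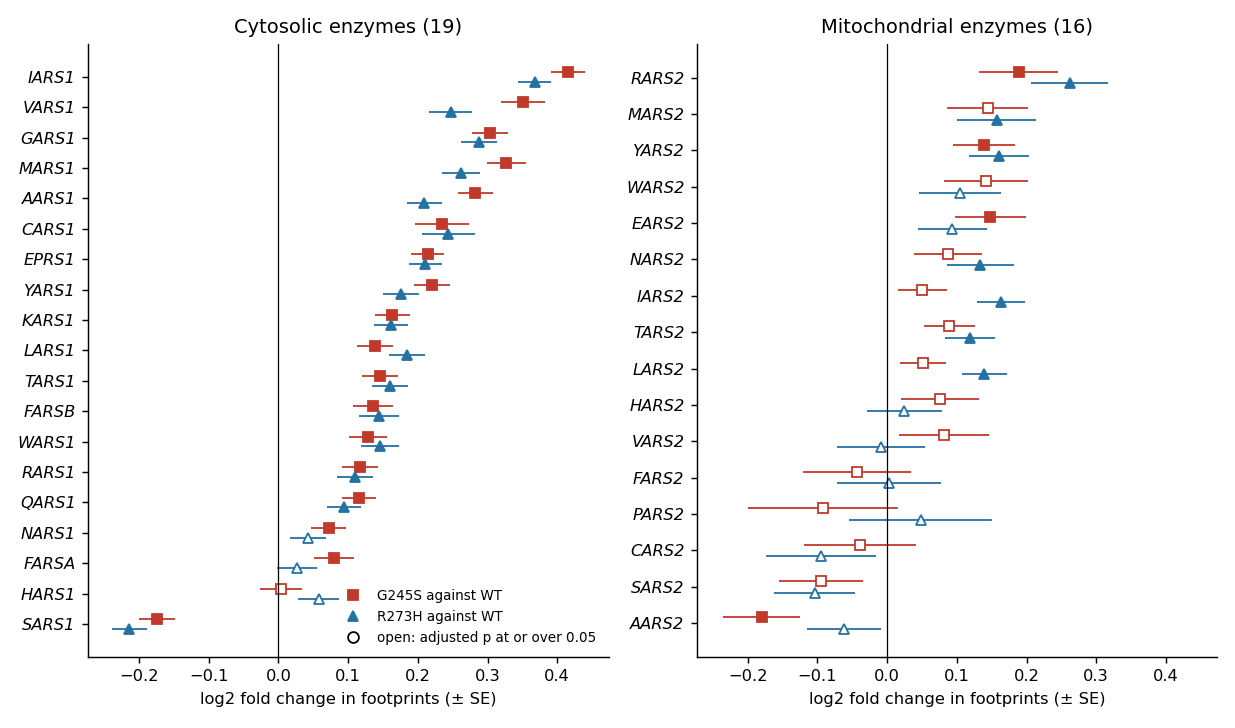
Log2 fold change in footprints against WT, with SE from the edgeR fit, for each of the 19 cytosolic (left) and 16 mitochondrial (right) enzymes in G245S (squares) and R273H (triangles); open symbols have an adjusted p at or over 0.05. All cytosolic symbols but those of SARS1 lie above 0, SARS1 lies at -0.17 and -0.21, and the error bars are wider on the right.

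Among class I cytosolic enzymes IARS1, which charges isoleucine tRNA and belongs to the multisynthetase complex, differed most. Its gene lies at chr9:92210207-92293854 on the minus strand (GRCh38, GENCODE v44), and its promoter window is among the 8 above. Its level was 477, 480 and 499 CPM in WT, 655, 637 and 650 CPM in G245S, and 619, 619 and 640 CPM in R273H. All mutant dishes were above all WT dishes. On the log2 scale G245S was higher by 0.42 ± 0.024 (SE; adjusted p = 1.01e-13). For R273H the difference was 0.37 ± 0.024 (adjusted p = 1.42e-12).

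VARS1, the valine enzyme (chr6:31777518-31795752, minus strand), had 205, 209 and 193 CPM in WT, 264, 259 and 251 CPM in G245S, and 243, 245.2 and 231 CPM in R273H. It lies outside the ATF4-target list and had the second largest rise in G245S, at 0.35 ± 0.032 on the log2 scale (adjusted p = 1.61e-09), and 0.25 ± 0.031 in R273H (adjusted p = 6.85e-07). The 3 groups of dishes did not overlap. MARS1, the methionine enzyme of the complex, was at 212, 203 and 213 CPM in WT, 259, 269 and 260 CPM in G245S, and 249, 253 and 252 CPM in R273H. It rose by 0.33 ± 0.028 on the log2 scale in G245S (adjusted p = 3.49e-10), with 0.26 ± 0.027 for R273H (adjusted p = 2.16e-08). The MARS1 gene overlaps DDIT3 on the other strand, and whether the counting used strand is not given in the sources used here. DDIT3 itself held 1.96 to 2.80 CPM, but MARS1 also overlaps the coding gene ARHGAP9, whose level is not given here. Of the 35 members, 12 overlap another coding gene, among them AARS1, KARS1, YARS1 and YARS2.

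CARS1, which charges cysteine tRNA, was at 71.4, 72.3 and 73.2 CPM in WT. It was at 86.7, 82.1 and 86.4 CPM in G245S and 87.0, 82.3 and 87.6 CPM in R273H, with no overlap with WT. The log2 fold changes were 0.23 ± 0.038 (adjusted p = 3.23e-05) and 0.24 ± 0.037 (adjusted p = 1.13e-05). YARS1, the tyrosine enzyme, rose from 301, 301 and 310 CPM in WT to 355, 352 and 356 CPM in G245S and 342, 335 and 353 CPM in R273H. Its log2 fold changes were 0.22 ± 0.026 (adjusted p = 1.63e-07) and 0.18 ± 0.026 (adjusted p = 4.89e-06). LARS1, the leucine enzyme, which also senses leucine for mTORC1, was at 401, 409 and 425 CPM in WT, 446, 444 and 469 CPM in G245S and 471, 462 and 470 CPM in R273H. Here too the mutant dishes were above the WT dishes, by 0.14 ± 0.026 (adjusted p = 2.34e-04) and 0.18 ± 0.026 (adjusted p = 3.46e-06) on the log2 scale.

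QARS1, the glutamine enzyme, had 333, 328 and 336 CPM in WT, 360, 366 and 354 CPM in G245S and 356, 358 and 350 CPM in R273H. The groups did not overlap with WT, yet the rise was among the smallest of the called genes, at 0.12 ± 0.025 on the log2 scale in G245S (adjusted p = 8.05e-04), with 0.094 ± 0.024 for R273H (adjusted p = 0.00419). Of the other class I enzymes, RARS1 (arginine) rose by 0.12 and 0.11 and WARS1 (tryptophan) by 0.13 and 0.15. All 9 class I cytosolic enzymes were thus called higher in each mutant against WT. The share called higher among all genes at the cytosolic level was 31.6% in G245S and 31.9% in R273H.

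Class II cytosolic enzymes varied more: for G245S, 7 of 9 were higher and 1 was lower, and for R273H, 5 were higher and 1 was lower. The shares called higher at the cytosolic level, 31.6% and 31.9%, apply here too. GARS1, which charges glycine tRNA in both compartments, lies at chr7:30580533-30634033 on the plus strand. It was at 232, 227 and 230 CPM in WT, 284, 290 and 276 CPM in G245S, and 281, 281 and 279 CPM in R273H. The log2 fold change of G245S was 0.30 ± 0.026 (adjusted p = 4.74e-10), that of R273H was 0.29 ± 0.026 (adjusted p = 1.08e-09), and the mutant dishes did not overlap with WT. AARS1, the alanine enzyme, had 387, 383 and 368 CPM in WT, 469, 457 and 457 CPM in G245S, and 443, 439 and 432 CPM in R273H. The 3 groups stood apart, G245S the highest. It was above WT by 0.28 ± 0.025 on the log2 scale (adjusted p = 8.86e-10), and R273H was above WT by 0.21 ± 0.025 (adjusted p = 2.04e-07).

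KARS1, which makes the lysine enzyme of both compartments and is part of the multisynthetase complex, was at 305, 298 and 300 CPM in WT. Its level was 337, 332 and 342 CPM in G245S and 338, 334 and 339 CPM in R273H. Both mutants were above WT in every dish, by 0.16 ± 0.025 (adjusted p = 1.15e-05) and 0.16 ± 0.024 (adjusted p = 8.99e-06) on the log2 scale. Of the genes serving both compartments, GARS1 and KARS1 therefore both rose.

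SARS1, which charges serine tRNA and also the selenocysteine tRNA with serine, was the one cytosolic enzyme that fell. Its gene lies at chr1:109213918-109238182 on the plus strand. It had 275, 279 and 274 CPM in WT, 246, 244.8 and 244 CPM in G245S, and 240, 238 and 236 CPM in R273H. The lowest WT dish was above every mutant dish. It fell by 0.17 ± 0.025 on the log2 scale in G245S (adjusted p = 5.78e-06), while R273H dropped by 0.21 ± 0.025 (adjusted p = 1.44e-07). SARS1 is also on the list of ATF4 targets, where the other 11 of 12 genes were called higher in G245S and 10 of 12 in R273H. At the cytosolic level, 31.6% and 31.9% of all genes were called higher.

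**Figure D4:**
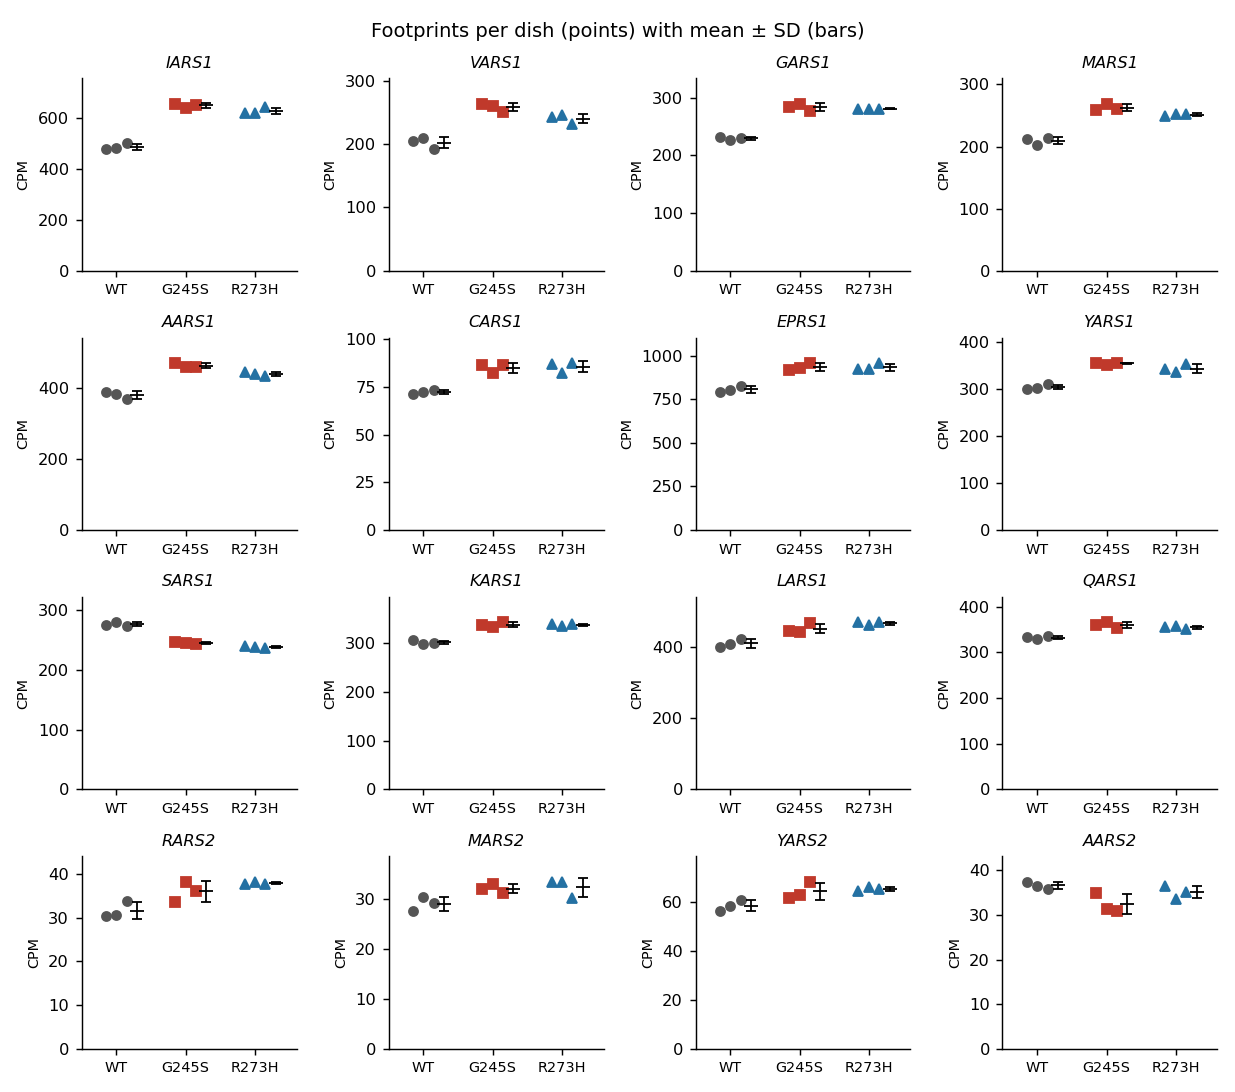
Footprint level in CPM (from 0) in each dish for 12 cytosolic and 4 mitochondrial enzymes in WT (circles), G245S (squares) and R273H (triangles), with mean ± SD to the right of each group, n = 3 dishes. The mutant dishes lie above WT in the cytosolic panels except SARS1, where WT is highest at 274 to 279 CPM; some mitochondrial panels overlap.

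The remaining class II enzymes rose less than GARS1 and AARS1 or were not called. TARS1 (threonine) rose by 0.15 in G245S and 0.16 in R273H. FARSB rose by 0.14 and 0.14, whereas FARSA, the other subunit of the same phenylalanine enzyme, was at 0.080 (adjusted p = 0.0423) and 0.027 (adjusted p = 0.523). NARS1 (asparagine), whose window holds the CARE core, was at 0.072 (adjusted p = 0.0390) and 0.042 (adjusted p = 0.223). The G245S calls of FARSA and NARS1 were each lost in 8 of 16 alternative analyses. HARS1 (histidine) was at 0.0035 and 0.058 and not called in either mutant. HARS1 and HARS2 are neighbours that start on opposite strands and overlap by 108 bases on chromosome 5, and they are closely related paralogs, so reads may have been split between them and both values are uncertain. Another 11 of the 35 members have annotated pseudogenes named after them, among them KARS1 with 3.

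EPRS1, the fused enzyme for glutamate and proline, belongs to both classes and is the longest of the set at 1512 codons. It was at 790, 802 and 828 CPM in WT, 918, 930 and 959 CPM in G245S, and 921, 923 and 955 CPM in R273H. No mutant dish overlapped with WT. Its log2 fold changes were 0.21 ± 0.024 (adjusted p = 8.68e-08) and 0.21 ± 0.024 (adjusted p = 9.83e-08).

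By position in the cell's charging machinery, all 7 members of the multisynthetase complex among these genes (EPRS1, IARS1, KARS1, LARS1, MARS1, QARS1 and RARS1) were higher in each mutant, with a median log2 fold change of 0.16 in G245S and 0.18 in R273H. Outside the complex, G245S had 10 of 12 cytosolic enzymes higher and 1 lower (median 0.14), and R273H had 8 higher and 1 lower (median 0.15). The 12 listed ATF4 targets had a median of 0.22 in G245S and 0.20 in R273H. The 7 other cytosolic enzymes had medians of 0.12 and 0.11, with 6 and 5 of them called higher. Among all genes at the mean level of the cytosolic members, 31.6% were called higher in G245S and 31.9% in R273H. No test was made between these groups, which share libraries and differ in few genes.

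Among the mitochondrial enzymes RARS2, which charges arginine tRNA, rose most. It lies at chr6:87513459-87590028 on the minus strand, and was at 30.4, 30.7 and 33.9 CPM in WT, 33.7, 38.3 and 36.1 CPM in G245S, and 37.8, 38.3 and 37.7 CPM in R273H. The R273H dishes were above all WT dishes, while the lowest G245S dish was under the highest WT dish. On the log2 scale the rise was 0.19 ± 0.057 for G245S (adjusted p = 0.0142), while for R273H it was 0.26 ± 0.055 (adjusted p = 5.42e-04). YARS2, the tyrosine enzyme, had 56.4, 58.4 and 60.9 CPM in WT, 61.8, 62.9 and 68.4 CPM in G245S and 64.6, 66.2 and 65.5 CPM in R273H. Its dishes did not overlap with WT in either mutant, and the log2 fold changes were 0.14 ± 0.044 (adjusted p = 0.0203) and 0.16 ± 0.043 (adjusted p = 0.00555).

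MARS2, the methionine enzyme, was at 27.4, 30.3 and 29.1 CPM in WT, 31.9, 33.0 and 31.1 CPM in G245S, and 33.4, 33.2 and 30.1 CPM in R273H. It was called in R273H, where 1 dish lay within the WT range and the call was lost in 5 of 16 alternative analyses, at 0.16 ± 0.057 (adjusted p = 0.0362), and not in G245S, where the dishes did not overlap with WT, at 0.14 ± 0.058 (adjusted p = 0.0704). AARS2, the alanine enzyme, was the one mitochondrial gene called lower. It had 37.5, 36.6 and 35.8 CPM in WT, 34.9, 31.4 and 30.8 CPM in G245S and 36.4, 33.6 and 35.2 CPM in R273H. It fell by 0.18 ± 0.055 in G245S (adjusted p = 0.0170), with all G245S dishes below WT, and was at -0.062 ± 0.053 in R273H (adjusted p = 0.421), where the dishes overlapped. AARS2 overlaps the coding gene TMEM151B on the other strand.

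The other mitochondrial enzymes changed in one mutant or none. EARS2 (glutamate) was called in G245S, at 0.15, and not in R273H, at 0.094. IARS2 (isoleucine) at 0.16, LARS2 (leucine) at 0.14, NARS2 (asparagine) at 0.13 and TARS2 (threonine) at 0.12 were called higher in R273H; the NARS2 call was lost in 6 of 16 alternative analyses and that of TARS2 in 1. Their G245S values, in the same order, of 0.051, 0.051, 0.087 and 0.089 were not called. WARS2, at 0.14 and 0.10, was called in neither mutant. CARS2, FARS2, HARS2, PARS2, SARS2 and VARS2 were called in neither and lay between -0.095 and 0.081 in G245S and between -0.10 and 0.048 in R273H. PARS2, with 152 to 243 counts a library, had the widest error, with an SE of 0.11 in G245S.

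Ratios of cytosolic to mitochondrial footprints per codon were set side by side for the 15 paired amino acids. For alanine, cysteine, isoleucine and valine the ratio was above WT in every dish of both mutants. For alanine it was 10.5 ± 0.10 in WT, 14.5 ± 0.74 in G245S and 12.7 ± 0.49 in R273H (SD, n = 3 dishes). For isoleucine it was 2.40 ± 0.051, 3.10 ± 0.14 and 2.77 ± 0.067. For arginine it was 12.6 ± 0.37 in WT and 11.3 ± 0.33 in R273H, where every dish was below WT, the only such case of 15. In all, 7 of the 15 ratios in G245S and 4 in R273H had every mutant dish above every WT dish. Single genes were separated from WT in this way, in either direction, for 37.4% and 41.2% of all genes tested.

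With all 9 libraries in 1 fit and group as the only term, no synthetase was called between the mutants. In G245S against R273H, edgeR's quasi-likelihood test called 0 of 19 cytosolic and 0 of 16 mitochondrial enzymes, with 3 and 3 at an unadjusted p under 0.05. DESeq2 called 1 cytosolic enzyme, VARS1, and 0 of the 6 mitochondrial ones to which it gave an adjusted p. With length and GC trends removed, 3 cytosolic enzymes were called (AARS1, IARS1 and VARS1), with the 6 mutant libraries alone 1 (VARS1), and without the low-count filter 1 mitochondrial enzyme (IARS2). Leaving out WT replicate 3 or G245S replicate 3 gave a call of VARS1, and the latter also of IARS2. With the dish number as a block, a pairing that the design does not give, AARS1, VARS1 and IARS2 were called. Over all genes tested 2.59% were called, with 7.95% among genes at the level of the cytosolic members and 2.74% at that of the mitochondrial ones. Log2 fold changes lay between -0.054 and 0.10 in the cytosolic set and between -0.14 and 0.090 in the mitochondrial set. The 95% intervals of single genes, with the 6 residual degrees of freedom alone, reached from -0.13 to 0.18 and from -0.39 to 0.25. These are the outermost bounds over the genes of each set, and they cover only the spread between dishes. The intervals are wider than the quasi-likelihood test implies, since its degrees of freedom also include a part estimated across genes. MARS1 had an unadjusted p of 0.0221 in that test, with an interval from -0.00057 to 0.13. The dishes of the mutants did not overlap for AARS1, MARS1, SARS1 and VARS1, higher in G245S, and for IARS2 and LARS2, higher in R273H. The largest of these differences were 0.10 ± 0.031 for VARS1 (adjusted p = 0.0662) and -0.11 ± 0.034 for IARS2 (adjusted p = 0.0818). Of all genes tested, 21.5% were separated in this way.

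Genes that work with the synthetases moved in part. Of 13 partner genes, G245S had 5 higher and 2 lower, and R273H had 6 higher and 2 lower. Over all genes tested, 24.7% were called in either direction in G245S and 28.8% in R273H. XPOT, which exports tRNA from the nucleus, rose by 0.30 on the log2 scale for G245S (adjusted p = 6.16e-09), with 0.36 for R273H (adjusted p = 1.12e-10). Of the complex's scaffolds, AIMP2 rose by 0.16 and 0.13 and EEF1E1 by 0.16 and 0.20, while AIMP1 rose by 0.11 in G245S and was not called in R273H at 0.044. QRSL1, a subunit of the amidotransferase that makes mitochondrial glutaminyl-tRNA, rose by 0.21 and 0.27. DTD1, which removes D-amino acids from tRNA, fell by 0.24 in G245S and by 0.20 in R273H (adjusted p = 0.00201 and 0.00540). SEPSECS, which makes selenocysteinyl-tRNA, was lower in G245S (-0.36), and MTFMT, which formylates the mitochondrial initiator tRNA, was lower in R273H (-0.27).

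Other genes of the stress response that ATF4 drives were compared beside them. Of 12 such genes, G245S had 8 called higher and 1 lower, and R273H had 7 higher and 2 lower, beside 24.7% and 28.8% of all genes called in either direction. ATF4 itself rose by 0.27 and 0.34, ASNS, which makes asparagine, by 0.52 and 0.47, and CHAC1, which degrades glutathione, by 0.89 and 0.84, all on the log2 scale. CHAC1 was sparsely counted, at 1.37 to 3.96 CPM with as few as 26 counts in a library, and its SE was 0.19 in each mutant. SESN2, which is also a p53 target, fell by 0.71 in G245S and by 0.76 in R273H. DDIT4, an inhibitor of mTORC1 signalling, was called lower in R273H (-0.16) and not called in G245S (0.071). The transcription factor DDIT3 was called in neither mutant (-0.20 and 0.15), and neither was CEBPB, another (0.19 and 0.12). How these genes relate to the synthetases was not tested.

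The libraries differed between groups in how footprints depended on coding length. Spearman's rho was taken across 10885 genes between coding length and a library's log2 deviation from the mean of all libraries. It was -0.18 to -0.14 in the WT dishes, -0.012 to 0.12 in G245S and 0.14 to 0.20 in R273H. For GC content, rho varied more between dishes of a group. It was -0.18 to 0.26 in WT, -0.19 to 0.34 in G245S and -0.43 to -0.14 in R273H. These are correlations across genes, which are not independent replicates. With trends on coding length and GC content removed, 18 cytosolic enzymes were called in each mutant against WT, the direction of IARS1 and SARS1 held (0.42 and -0.17 in G245S, 0.34 and -0.21 in R273H), and the mitochondrial counts were 7 and 8. Sizes in R273H moved both ways: EPRS1 went from 0.21 to 0.17, LARS1 from 0.18 to 0.15 and FARSA from 0.027 to 0.057. The summed levels and ratios given above were not corrected for these trends.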

How the data were processed

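The authors trimmed reads with Trim Galore and cutadapt, read molecular barcodes with UMI-tools, filtered rRNA with SortMeRNA and aligned to GRCh38 with STAR and SAMtools, per the labels and methods. The deposited table holds expected counts, which the authors estimated per gene without scaling for depth or length; between 47.6% and 49.8% of nonzero values per library were not whole (tolerance 0.01), so some reads were shared between genes. The counting tool and its use of strand are not given in the sources used here.

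After rounding, footprint counts went into edgeR 4.0.16 under R 4.3.3 (TMM scaling, filterByExpr, robust glmQLFit, glmQLFTest, two-sided). All 9 libraries were in 1 fit with group as the only term, leaving 6 residual degrees of freedom. The fit adds degrees of freedom estimated across genes, so the tests use more than 6. Calls required an adjusted p (Benjamini-Hochberg) under 0.05. TMM factors were 0.987 to 1.01 and the biological coefficient of variation was 2.58%. The test was checked on simulated counts. CPM values are given per dish in dish order, with SD over dishes. SE comes from the fit, and intervals between mutants use 95% limits with the 6 residual degrees of freedom alone. Coding lengths, coordinates and overlaps come from GENCODE v44, promoter windows from RefSeq.

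The members, lists, naming rule and tests were chosen with earlier results of these data known. Values in every dish are given for members called in both mutants against WT (at most 12, the largest mean size of log2 fold change), for any called between mutants, for GARS1, KARS1 and QARS1, and for the 4 mitochondrial enzymes with the largest mean size among those called in a mutant. The CARE windows and the genes whose mutant dishes do not overlap were named after their values were seen. Alternatives were RLE and upper-quartile scaling, no low-count filter, DESeq2 1.42.0, the 6 libraries of a contrast alone, the dish number as a block, removal of coding-length and GC trends (fitted on genes averaging 100 counts or more), and leaving out each dish. Some partner genes are not reported here.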

Additional observations from a re-analysis of the deposited data

How the results depend on the processing

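The counts of cytosolic enzymes called against WT stayed within 16 to 18 in G245S and 16 in R273H when any 1 dish was left out, and no called gene changed direction under any alternative listed. The calls of FARSA and NARS1 in G245S were each lost in 8 of 16 alternatives, those of AARS2, EARS2, RARS2 and YARS2 in G245S in 4 each, and those of MARS2, NARS2 and TARS2 in R273H in 5, 6 and 1. Against the 4 mitochondrial enzymes called in G245S, DESeq2 called 0 and the fit without length and GC trends 7. The count was 1 to 4 without 1 dish, with 1 call left without WT replicate 1 or G245S replicate 2 and 2 without WT replicate 2 or G245S replicate 3. Against the 7 called in R273H, leaving out a dish gave 4 to 7, the lowest without R273H replicate 1. The median log2 fold change of the mitochondrial enzymes in R273H, 0.099, was 0.063 without WT replicate 3. Between the mutants, where 0 were called, the cytosolic count was 1 with DESeq2, 2 with the replicate block, 3 with trends removed, 1 with the 6 libraries alone and 0 to 1 without 1 dish; VARS1 was among the genes called in each of these. The mitochondrial count was 1 with no low-count filter, 1 with the replicate block and 0 to 1 without 1 dish, each time IARS2. The causes of these differences were not tested.

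Directions turned only for values near 0 that were not called. Without 1 dish, the log2 fold change of HARS1 in G245S lay between -0.019 and 0.025 and that of CARS2 between -0.13 and 0.0087. In R273H, FARS2 lay between -0.039 and 0.079, HARS2 between -0.0096 and 0.056, PARS2 between -0.014 and 0.14 and VARS2 between -0.033 and 0.027. VARS2 in R273H, at -0.0082, was 0.0075 with upper-quartile scaling, 0.0023 with no filter and 0.00028 with trends removed. The main fit has no term for dish number, since the design does not give the numbers as pairs. Deviations of same-numbered dishes correlated at 0.044 to 0.23 over 9 pairs, 4 of them above 0.1. For 18 pairs of different number the range was -0.19 to 0.060. In both other groups, 8 of 9 libraries correlated best with their own number. This is a hint from the data, and not from the design, that same-numbered dishes share some variation. With the block, no call against WT was lost. Depth limits the least counted members: PARS2 had 152 to 243 counts a library and an SE of 0.11.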
